A study of Mus musculus with 12 samples.

Results

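The liver is the main source of the clade A serpins of plasma, and 10 genes of this family were followed here across genotype and diet. They were taken by their symbols from a table of 35275 genes: Serpina1a, Serpina1b, Serpina1c, Serpina1d and Serpina1e, the mouse copies of the alpha-1-antitrypsin gene; Serpina3k, Serpina3m and Serpina3n, copies related to alpha-1-antichymotrypsin; Serpina6, which encodes corticosteroid-binding globulin; and the pseudogene Serpina4-ps1. Each symbol matched 1 Ensembl gene of the table, and each gene passed the minimum mean level of 0.5 FPKM (fragments mapped to a gene, scaled to the length of its transcript and to the depth of the library), as 12466 genes did. Whole liver was sequenced from wild-type (WT) mice and from mice that lack Pctp, the gene for phosphatidylcholine transfer protein, in every tissue (Pctp-/-), on chow or on a diet depleted of methionine and choline (MCD). Each of the 4 groups had 3 mice, labelled as biological replicates. The strain, the age and the time on the diet were not given for these mice in the sources used here, and the deletion is not restricted to liver.

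Serpins are protease inhibitors that act once. A flexible reactive centre loop is offered to the protease as bait, the protease cuts it, and the cut serpin folds around the enzyme and traps it. Alpha-1-antitrypsin restrains neutrophil elastase, and alpha-1-antichymotrypsin restrains chymotrypsin-like proteases. Corticosteroid-binding globulin has lost the inhibitory role and carries glucocorticoids in blood. Human has a single SERPINA1 and a single SERPINA3 gene, while the mouse carries several copies of each. The mouse copies differ more in the loop, for its length, than over the whole coding sequence.

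The genes lie together on chromosome 12 (GRCm38), within a stretch of 0.800 megabases that holds 28 annotated genes with a Serpina symbol. Serpina6 is at chr12:103646630-103657212 on the minus strand. The Serpina1 copies follow on the same strand, with Serpina1b at chr12:103728156-103830373, Serpina1d at chr12:103763594-103773592, Serpina1a at chr12:103853589-103863562, Serpina1c at chr12:103894926-103904887 and Serpina1e at chr12:103946931-103958975. On the plus strand are Serpina4-ps1 at chr12:104080649-104086724, Serpina3k at chr12:104338486-104346144, Serpina3m at chr12:104338486-104394257 and Serpina3n at chr12:104406729-104414329. Serpina1d lies inside the annotated span of Serpina1b without sharing exon bases, while Serpina3k and Serpina3m share 60 exonic bases on the same strand.

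The loop sequences are shown because the copies differ more there, base for base, than over the whole coding sequence. In Serpina1a to Serpina1e the coding stretch around the loop lies in the last exon and is 87 bases long, and 18 positions (in capitals) differ among the 5 copies, read 5′ to 3′ on the coding strand from the GRCm38 transcripts of GENCODE M21.
Serpina1a: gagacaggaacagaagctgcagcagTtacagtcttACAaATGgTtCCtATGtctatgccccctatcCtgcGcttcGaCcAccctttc
Serpina1b: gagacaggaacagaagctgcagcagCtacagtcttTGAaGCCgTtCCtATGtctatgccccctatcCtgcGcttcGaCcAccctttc
Serpina1c: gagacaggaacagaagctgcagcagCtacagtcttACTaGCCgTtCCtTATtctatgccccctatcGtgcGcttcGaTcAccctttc
Serpina1d: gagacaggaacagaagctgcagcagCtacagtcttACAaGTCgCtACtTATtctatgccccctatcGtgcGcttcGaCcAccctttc
Serpina1e: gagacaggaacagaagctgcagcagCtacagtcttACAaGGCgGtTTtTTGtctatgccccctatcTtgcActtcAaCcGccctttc
These stretches run from the hinge of the loop towards the end of the protein. Over their variable part the copies were 78.6 to 90.5% identical in pairs, against 96.3 to 98.5% over the whole coding sequence.

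The Serpina3 copies differ more. Their coding sequences were 83.8 to 92.6% identical in pairs, and the capitals here mark the 45 to 51 bases taken as the variable part of the loop, over which identity was 52.9 to 80.0%. Some flanking bases of Serpina3n differ as well.
Serpina3k: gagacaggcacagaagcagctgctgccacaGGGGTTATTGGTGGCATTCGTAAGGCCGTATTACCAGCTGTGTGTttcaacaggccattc
Serpina3m: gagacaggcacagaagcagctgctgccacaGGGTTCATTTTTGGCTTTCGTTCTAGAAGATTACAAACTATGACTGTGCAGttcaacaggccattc
Serpina3n: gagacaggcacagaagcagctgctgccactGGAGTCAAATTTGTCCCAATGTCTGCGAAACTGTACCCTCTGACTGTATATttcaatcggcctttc
Between the Serpina1 and the Serpina3 copies coding identity was 64.9 to 67.1%.

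How far a read can tell the copies apart was measured by sliding a window of 150 bases, about 1 read, along 1 transcript of each gene. The share of windows also found whole in a transcript of another gene was 50.5% in Serpina1c, 40.7% in Serpina1a, 23.3% in Serpina1d, 21.2% in Serpina1b and 9.42% in Serpina1e. It was 0.331% in Serpina3m and 0.262% in Serpina3k, and no window of Serpina3n, Serpina6 or Serpina4-ps1 was shared. How reads that fit several places were counted is not given in the sources used here, so the split of FPKM among Serpina1a to Serpina1e is uncertain, and their sum is given beside the single genes. Reads mapped to several places made up 4.07 to 4.84% of reads in the chow libraries and 6.5 to 7.4% in the MCD libraries, and the part of this gap in the diet differences of the Serpina1 copies was not tested.

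The Serpina1 copies also resemble each other before the start of transcription. RefSeq promoter windows (GRCm38.p6) were found for 6 of the 10 genes. For the 5 Serpina1 copies, stretches of 100 bases were lined up on a short sequence that all hold, 16 to 78 bases before the start. These stretches were 93 to 98% identical in pairs, and lining them up on a shared sequence favours a high value. No promoter window was at hand for Serpina3k, Serpina3m, Serpina6 or Serpina4-ps1.

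Uniquely mapped reads ran from 30486576 to 55179468 a library. Pctp, the targeted gene, was lower in each Pctp-/- library (0.330 to 0.566 FPKM on chow, 0.156 to 0.329 on MCD) than in each WT library (1.21 to 2.65 and 3.61 to 7.90). The diets cannot be told apart from the sequencing of their libraries: bases of quality Q30 or above made up 86.3 to 87.1% in chow libraries against 93.5 to 94.6% in MCD libraries, and uniquely mapped reads 77.6 to 79.4% against 85.7 to 87.6%. Hepatocyte markers (Alb, Apoa1, Ttr, Cps1 and Cyp2e1) summed to between 41814 and 46811 FPKM in chow libraries and between 55553 and 77790.1 in MCD libraries. Most of the sum was Alb, which averaged 27788 FPKM on chow and 43899 on MCD in WT, and 28262 and 57218 in Pctp-/-. Of the 5, limma called 1 higher and 2 lower on MCD in WT, and 2 higher and 1 lower in Pctp-/- (adjusted p under 0.05). Over all genes 34.5% were called higher and 22.5% lower in WT, and 26.0% and 24.4% in Pctp-/-. Other cell type markers also differed between diets. The 6 macrophage markers summed to 35.3 to 85.1 FPKM in chow libraries and 96.7 to 181 in MCD libraries (6 called higher in WT, 3 in Pctp-/-), the 6 stellate cell markers to 28.7 to 51.6 and 129 to 182 (4 and 3), and the 8 neutrophil markers to 0.491 to 3.99 and 6.22 to 24.2 (of 3 tested, 3 and 2). Of the 4 pancreas markers Prss2, Cpa1 and Ctrb1 were at 0, and Cela1 was 38.1 to 55.7 FPKM on chow, lower on MCD at 13.04 to 24.3 (log2 fold change -1.30 in WT and -1.03 in Pctp-/-). The part of these shifts in the serpin values was not tested. In whole liver, fewer cells of a type and less RNA in each cell cannot be told apart.

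FPKM sets transcripts of unequal length on 1 scale, so listed levels can be set side by side. The places of Serpina1a to Serpina1e in the order are uncertain, since it is not given how reads that fit several places were counted. Serpina3k had the highest level in WT on chow, 1632 ± 208 FPKM (SD, n = 3), followed by Serpina1b at 1389.7 ± 174, Serpina1a at 991 ± 139, Serpina4-ps1 at 424 ± 280, Serpina1d at 416 ± 68.6, Serpina1c at 372 ± 112, Serpina6 at 186 ± 46.1, Serpina3m at 184 ± 25.6, Serpina3n at 159 ± 19.2 and Serpina1e at 19.8 ± 3.28. Neighbours in this order overlapped in 5 of 9 pairs, and stood apart between Serpina1b and Serpina1a, Serpina1a and Serpina4-ps1, Serpina1c and Serpina6, and Serpina3n and Serpina1e. The 10 genes together held 1.18% of all FPKM in WT on chow and 1.09% in Pctp-/- on chow, against 0.501% and 0.674% on MCD.

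**Figure D1:**
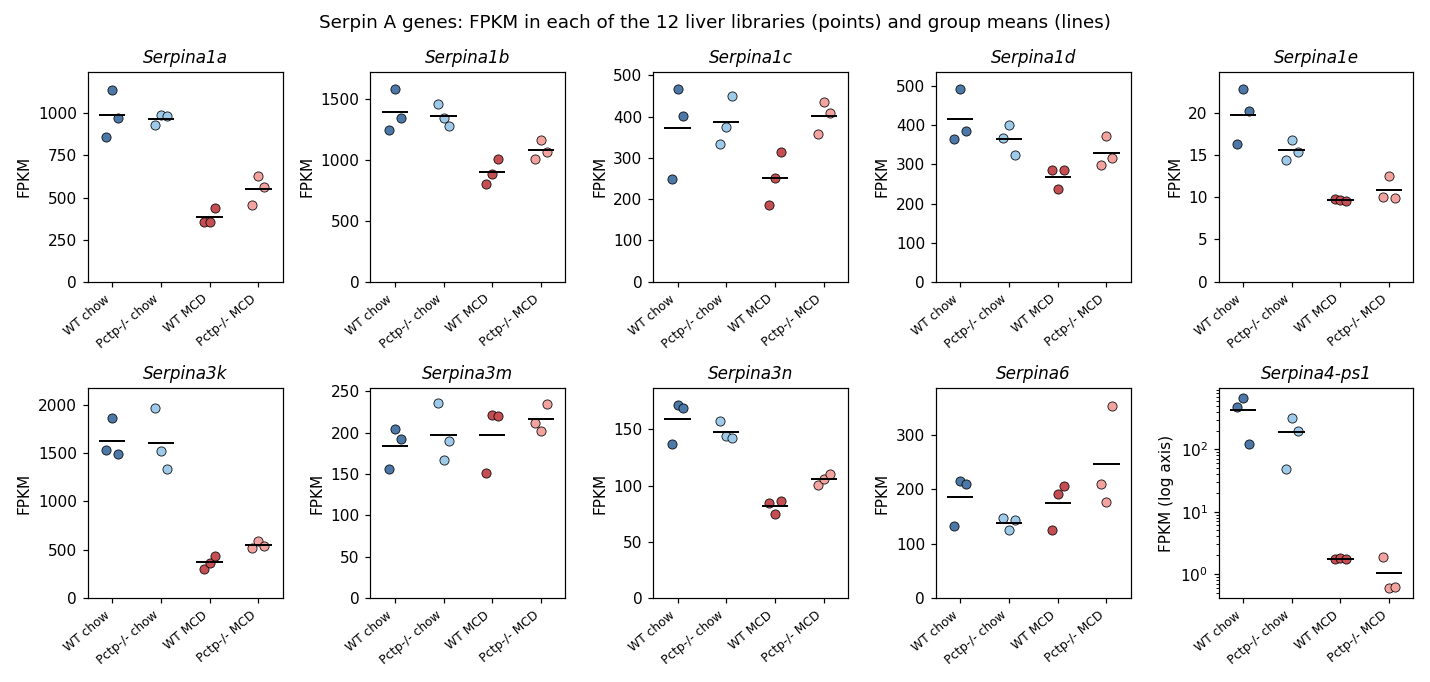
FPKM of each gene in the 12 liver libraries, by group; points are libraries, horizontal lines group means, and the axis starts at 0 except for Serpina4-ps1, which is on a log axis. Serpina3k, Serpina1a, Serpina3n and Serpina4-ps1 lie lower on MCD in each genotype, while the ranges of Serpina3m overlap in the 4 groups.

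In WT mice, 7 of the 10 genes were lower on MCD than on chow and none was higher by limma at an adjusted p under 0.05. The 7 were Serpina1a, Serpina1b, Serpina1d, Serpina1e, Serpina3k, Serpina3n and Serpina4-ps1. Of all genes tested, 57.0% were called in this comparison, 22.5% lower and 34.5% higher. The median log2 fold change of FPKM + 1, the scale of the fold changes that follow, was -0.79 over the 10 genes and 0.11 over all genes. Scaling the libraries to a common median ratio moved the median of all genes to 0.01, a shift of about 0.10 on the log2 scale, and made 50.7% of all calls higher in place of 60.5%.

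In Pctp-/- mice, 6 genes were lower on MCD and 1, Serpina6, was higher. Against this stood 50.3% of all genes called, 24.4% lower and 26.0% higher. The median over the 10 genes was -0.41, against 0.04 over all genes. Serpina1d passed the test in WT and not in Pctp-/-; its interaction is among those given for the difference of the diet responses.

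Serpina3k, the kallikrein-binding protein or contrapsin, had the highest listed mean of the inhibitors on chow, where its range overlapped that of Serpina1b. Its FPKM in WT was 1529, 1871 and 1495 on chow and 299.8, 366 and 439 on MCD, and in Pctp-/- it was 1969, 1520 and 1334 on chow and 522, 588 and 539.5 on MCD. Each MCD library lay below each chow library in both genotypes. The mean level was 4.43-fold lower on MCD in WT (log2 fold change -2.15, SE 0.16, adjusted p = 8.54e-07) and 2.92-fold lower in Pctp-/- (-1.53, SE 0.16, adjusted p = 1.47e-05).

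Serpina3m, whose coding sequence is 92.6% identical to that of Serpina3k, did not pass the test in either genotype. It ranged from 156 to 205 FPKM in WT on chow, 151 to 221 in WT on MCD, 167 to 235 in Pctp-/- on chow and 202 to 235 in Pctp-/- on MCD. The log2 fold change of MCD against chow was 0.09 (SE 0.17, adjusted p = 0.676) in WT and 0.14 (SE 0.17, adjusted p = 0.508) in Pctp-/-. In WT its sign turned when libraries were scaled by total or by median ratio.

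Serpina3n, an acute-phase inhibitor of granzyme B and of chymotrypsin-like proteases, stood at 137, 171 and 169 FPKM in WT on chow and at 84.1, 74.3 and 86.2 on MCD. In Pctp-/- mice the values were 158, 145 and 142 on chow and 101, 106 and 109.9 on MCD. The diet groups were apart in both genotypes. The level was 1.95-fold lower on MCD in WT (-0.95, SE 0.10, adjusted p = 1.13e-05) and 1.40-fold lower in Pctp-/- (-0.48, SE 0.10, adjusted p = 0.00192).

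The make-up of the Serpina3 transcripts shifted with the fall of Serpina3k. Of the FPKM summed over Serpina3k, Serpina3m and Serpina3n, Serpina3k held 82.6% ± 1.79 (SD, n = 3) in WT on chow and 82.1% ± 1.79 in Pctp-/- on chow, but 56.8% ± 1.85 and 63.1% ± 2.35 on MCD. The share of Serpina3m went from 9.33% to 30.4% in WT and from 10.2% to 24.8% in Pctp-/-. The summed level was 1975 ± 236 FPKM in WT on chow and 647 ± 106 on MCD, and 1953 ± 364 and 871 ± 32.6 in Pctp-/-.

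**Figure D2:**
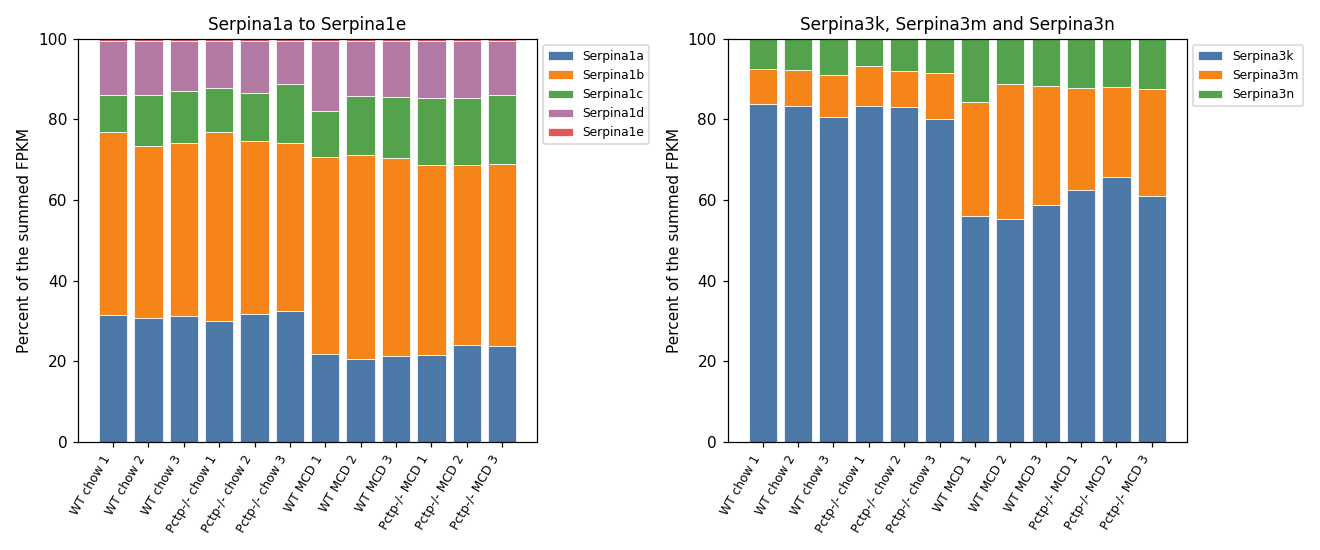
Percent of the summed FPKM held by each copy, in each library, for the Serpina1 genes (left) and the Serpina3 genes (right). Serpina3k holds 80.1 to 83.9% of its family on chow and 55.4 to 65.6% on MCD, and Serpina1a 29.9 to 32.4% on chow and 20.6 to 24.1% on MCD.

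Among the alpha-1-antitrypsin copies Serpina1a responded most to the diet. In WT it was at 861, 1138 and 976 FPKM on chow and at 355, 357 and 440.3 on MCD. The Pctp-/- libraries held 929, 989 and 987 on chow and 457, 629.9 and 559.6 on MCD. No MCD library reached the lowest chow library. The level was 2.58-fold lower on MCD in WT (-1.36, SE 0.14, adjusted p = 7.55e-06) and 1.76-fold lower in Pctp-/- (-0.83, SE 0.14, adjusted p = 0.00038).

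Serpina1b, the copy listed highest in each group, was 1243 to 1583 FPKM in WT on chow and 800 to 1008 on MCD. The Pctp-/- range was 1272 to 1458 FPKM for chow, against 1001 to 1159.5 for MCD. The fall was by 0.63 (SE 0.12, adjusted p = 0.000729) in WT and by 0.34 (SE 0.12, adjusted p = 0.0328) in Pctp-/- on the log2 scale. The second of these was lost when any of 4 single libraries was left out, Pctp-/- chow replicate 1 or 2 or Pctp-/- MCD replicate 1 or 3 (adjusted p 0.0712 to 0.111). It was also lost with median-ratio scaling (adjusted p = 0.0709) and with no filter on low values (adjusted p = 0.0848), and turned to 0.079 with quantile normalization.

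Serpina1e, the rarest copy, went in WT from 16.3, 22.8 and 20.3 FPKM on chow to 9.83, 9.65 and 9.51 on MCD, 2.05-fold lower (-0.95, SE 0.13, adjusted p = 5.39e-05). In Pctp-/- it went from 14.5, 16.8 and 15.4 to 10.0, 12.5 and 9.96, 1.44-fold lower (-0.49, SE 0.13, adjusted p = 0.0063). Serpina1d was 366 to 494 FPKM on chow and 237 to 285 on MCD in WT, 1.54-fold lower (-0.62, SE 0.14, adjusted p = 0.00202). In Pctp-/- the 2 diets overlapped for this copy, 325 to 402 against 299 to 372 (-0.14, SE 0.14, adjusted p = 0.393).

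Serpina1c, the copy with the largest share of ambiguous windows, overlapped between diets in both genotypes. WT libraries held 248, 465 and 402 FPKM on chow and 187, 251 and 314 on MCD (-0.55, SE 0.23, adjusted p = 0.0549). Pctp-/- libraries held 334, 374 and 449 on chow and 359, 435 and 408 on MCD (0.06, SE 0.23, adjusted p = 0.849). Without WT chow replicate 1, the lowest of its group, the WT value was -0.82 (adjusted p = 0.00495), and without WT MCD replicate 3 it was -0.73 (adjusted p = 0.0238). It also passed under each of the 3 other scalings, by total (adjusted p = 0.0168), median ratio (0.0379) and quantiles (0.0145).

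Summing the copies makes their split matter less. The sum still depends on how reads that fit several places were counted and on the unequal lengths of the copies. Summed, Serpina1a to Serpina1e made 3188 ± 487 FPKM (SD, n = 3) in WT on chow, 3091 ± 38.1 in Pctp-/- on chow, 1809 ± 220 in WT on MCD and 2365 ± 242 in Pctp-/- on MCD. Entered as 1 gene in the fit, the sum fell by 0.81 on the log2 scale (adjusted p = 0.00023) in WT and by 0.39 (adjusted p = 0.0245) in Pctp-/-. Serpina1a held 31.1% ± 0.374 of the sum in WT on chow and 21.2% ± 0.569 on MCD, and 31.3% ± 1.25 and 23.1% ± 1.42 in Pctp-/-.

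A pseudogene annotated inside the span of Serpina1b, Gm8893 (chr12:103817856-103822243, minus strand), was picked out after its values were seen. Its transcript of 1242 bases was 98.8% identical to Serpina1a and 96.4 to 97.8% identical to the other copies, and it shared 77 windows of 150 bases with Serpina1d and 38 to 42 with each of the others. It was listed at 571 to 719 FPKM in the WT chow libraries, 602 to 710.1 in Pctp-/- on chow, 161 to 247 in WT on MCD and 290 to 457 in Pctp-/- on MCD. On MCD it was higher in each Pctp-/- library than in each WT library (log2 fold change 0.94, SE 0.18, adjusted p = 0.0386). With Gm8893 added to the Serpina1 sum, an alternative chosen after seeing the data, the sum fell by 0.92 (adjusted p = 0.000121) on MCD in WT and by 0.45 (adjusted p = 0.0153) in Pctp-/-.

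Serpina6, the carrier of glucocorticoids, was the only one of the 10 genes to be called higher on MCD, and in Pctp-/- mice. Its FPKM in Pctp-/- was 147, 126 and 144 on chow and 209, 177 and 354 on MCD, 1.78-fold higher with no overlap (0.76, SE 0.26, adjusted p = 0.0292). In WT the diets overlapped, 133, 215 and 210.5 on chow against 125, 192 and 207 on MCD (-0.09, SE 0.26, adjusted p = 0.778). Pctp-/- MCD replicate 3 had the highest value, and without it the Pctp-/- fold change was 0.47 (adjusted p = 0.13). The call was also lost without Pctp-/- chow replicate 2 (0.69, adjusted p = 0.0862) or replicate 3 (0.79, adjusted p = 0.0537).

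Serpina4-ps1, the mouse remnant of the gene that encodes kallistatin in human, showed the widest range. WT libraries on chow held 471, 677 and 123 FPKM and Pctp-/- libraries on chow 49.3, 322 and 196. On MCD it was 1.71, 1.81 and 1.76 in WT and 1.86, 0.588 and 0.619 in Pctp-/-. The highest MCD library was thus far under the lowest chow library in each genotype. The mean level was 241-fold lower in WT and 185-fold lower in Pctp-/-; the latter was 313-fold without Pctp-/- MCD replicate 1 and 120.1-fold without Pctp-/- chow replicate 2. On the log2(FPKM + 1) scale, which understates changes of low values, the fold change was -6.95 (SE 0.65, adjusted p = 4.11e-06) in WT and -6.24 (SE 0.65, adjusted p = 1.28e-05) in Pctp-/-. From FPKM, exonic length and mapped reads, about 13 to 54 read pairs lay behind each MCD value and about 1425 to 16710 behind each chow value. Within the chow groups its SD on the log2 scale was 1.29 in WT and 1.39 in Pctp-/-, against a median of 0.15 and 0.16 over all genes tested.

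**Figure D3:**
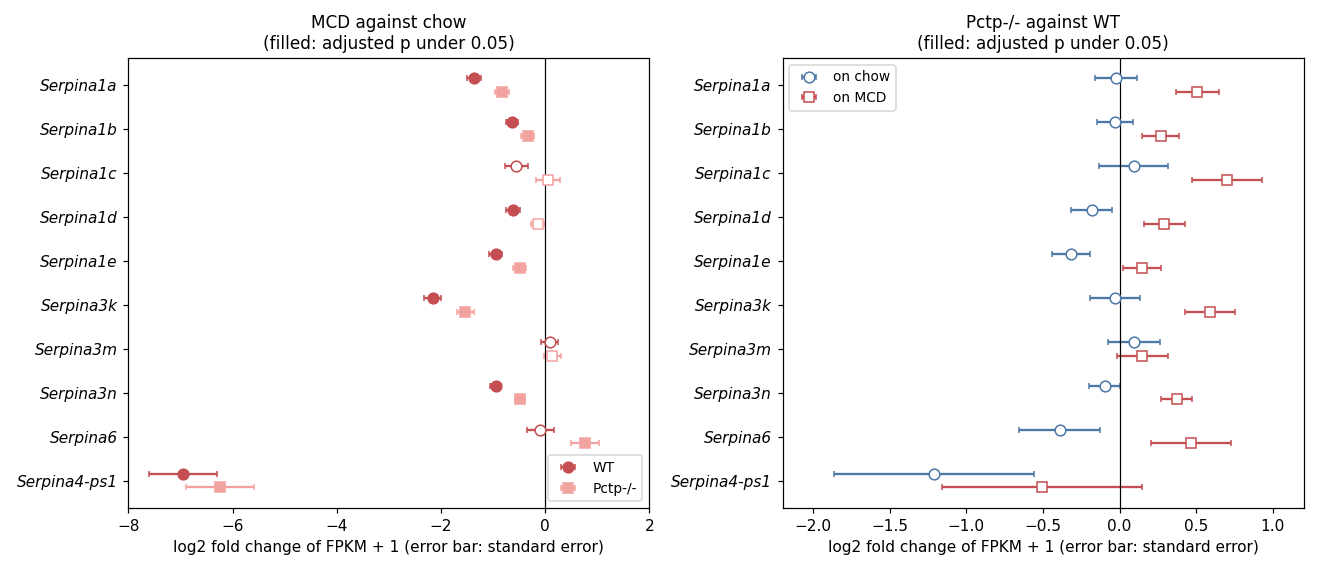
Log2 fold change of FPKM + 1 with its standard error for the 10 genes, MCD against chow in each genotype (left) and Pctp-/- against WT on each diet (right); filled symbols have an adjusted p under 0.05. In each genotype 7 filled symbols stand on the left and none on the right, where 9 of the 10 MCD points lie above 0.

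On chow the genotypes did not differ by limma at an adjusted p under 0.05 for any of the 10 genes, where 0.136% of all genes were called. No gene's groups were apart, against 10.6% of all genes. At an unadjusted p under 0.05 stood 1 gene, Serpina1e, which was 14.5 to 16.8 FPKM in Pctp-/- and 16.3 to 22.8 in WT (-0.32, SE 0.13, adjusted p = 0.614). The median over the 10 genes was -0.06.

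On MCD no gene passed the adjusted limma test between genotypes either, against 0.818% of all genes, while 5 had an unadjusted p under 0.05. In 6 of the 10 each Pctp-/- library was above each WT library, and in none the reverse; over all genes 5.50% were apart in the higher direction and 26.6% in either. The 6 were Serpina1a (log2 fold change 0.51, SE 0.14, adjusted p = 0.107), Serpina1c (0.70, SE 0.23, adjusted p = 0.159), Serpina1d, Serpina1e, Serpina3k (0.59, SE 0.16, adjusted p = 0.11) and Serpina3n (0.37, SE 0.10, adjusted p = 0.109). The groups of Serpina1e were close, at 9.51 to 9.83 FPKM in WT and 9.96 to 12.5 in Pctp-/-. Over the alternatives that kept the genes single, its fold change was 0.04 to 0.25 and that of Serpina1d 0.20 to 0.40. The Serpina1 copies share read-length windows, so they are not separate observations. The median was 0.33 over the 10 genes and -0.09 over all genes. With quantile normalization Serpina1a (0.69, adjusted p = 0.0384) and Serpina3n (0.44, adjusted p = 0.048) passed. With 3 mice against 3, an exact permutation test of a single gene cannot give a two-sided p under 0.1.

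Summed markers of 4 cell types stood apart between genotypes on MCD, although no tested marker of any cell type was called in this comparison. The hepatocyte markers summed to 55553 to 63387 FPKM in WT and 71159 to 77790.1 in Pctp-/- on this diet, the 6 macrophage markers to 113 to 181 and 96.7 to 97.8, the 6 endothelial markers to 54.8 to 67.7 and 49.0 to 54.1, and the 8 neutrophil markers to 18.8 to 24.2 and 6.22 to 14.8. Most of the hepatocyte sum was Alb, which averaged 43899 FPKM in WT and 57218 in Pctp-/- on MCD. The stellate cell sums overlapped, 129 to 182 against 134 to 158, as did those of cholangiocytes and of T and B cells and, for its 1 marker above 0, of pancreas. Their part in the serpin values was not tested.

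The difference of the diet responses, tested as an interaction in limma, was called for none of the 10 genes (0.0963% of all genes), and 6 had an unadjusted p under 0.05. Each estimate was positive, that is, the log2 change on MCD was less negative or more positive in Pctp-/-, also under the 3 other scalings. Over all alternatives that kept the genes single, the lowest estimate was -0.13 for Serpina3m and -0.07 for Serpina4-ps1. The other genes kept their sign. The estimates ran from 0.05 (SE 0.24) for Serpina3m to 0.86 (SE 0.37, adjusted p = 0.302) for Serpina6, with 0.63 (SE 0.23, adjusted p = 0.23) for Serpina3k, 0.53 (SE 0.20, adjusted p = 0.226) for Serpina1a and 0.47 (SE 0.19, adjusted p = 0.267) for Serpina1d. The smallest adjusted p was 0.164, for Serpina3n (0.47, SE 0.14). The median was 0.50 over the 10 genes and -0.10 over all genes. This contrast uses the same libraries as the 4 others, so the direction on MCD and the direction here are not separate evidence.

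Within groups many of the genes varied together, across families too. The correlation of their deviations from the group means over the 12 libraries, as a description over values that share libraries and ambiguous reads, was 0.35 to 0.80 in the 10 pairs of Serpina1 copies, with a median of 0.70. Over all 45 pairs the median was 0.45, and the highest value, 0.89, was between Serpina1b and Serpina3k. It was 0.41 to 0.71 in the 3 Serpina3 pairs and -0.41 to 0.19 between Serpina4-ps1 and the 9 other genes. The members lay mostly low in WT chow replicate 1, Pctp-/- MCD replicate 1 and WT MCD replicate 1 (9, 9 and 7 of 10 below their group mean) and high in WT chow replicate 2 (10 of 10 above). In these libraries, in the same order, the median deviation was -0.20, -0.10, -0.13 and 0.21 over the 10 genes. Over all genes it was 0.06, 0.01, 0.04 and -0.04. The part of differences between whole libraries in these correlations was not tested, and no such correlation was computed for other genes.

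Other clade A serpins moved in both directions. Of the 17 listed, 10 were tested, and on MCD 5 rose and 2 fell in WT, and 5 rose and 1 fell in Pctp-/-, near the 57.0% and 50.3% called among all genes. Serpina10, the inhibitor of coagulation factor X that depends on protein Z, rose from a mean of 58.2 to 92.5 FPKM in WT (0.66, SE 0.09, adjusted p = 7.85e-05) and from 52.1 to 90.4 in Pctp-/- (0.78). Serpina7, thyroxine-binding globulin, rose by 0.66 and 0.68, and Serpina5, the protein C inhibitor, by 1.86 and 1.79. Serpina3c went from a mean of 0.183 to 6.38 FPKM in WT and from 0.0703 to 5.97 in Pctp-/- (2.17 and 2.68, SE 0.57). Its WT libraries were uneven on MCD, at 0.427, 10.8 and 7.93 FPKM, against 0.0291 to 0.285 on chow. Serpina11 fell by 0.91 and 0.66. Serpina9 fell by 1.19 in WT, Serpina3h rose by 0.55 in WT, and Agt, the precursor of angiotensin, rose by 0.41 in Pctp-/-. Serpina12 and Serpina3f passed the test in neither genotype.

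**Figure D4:**
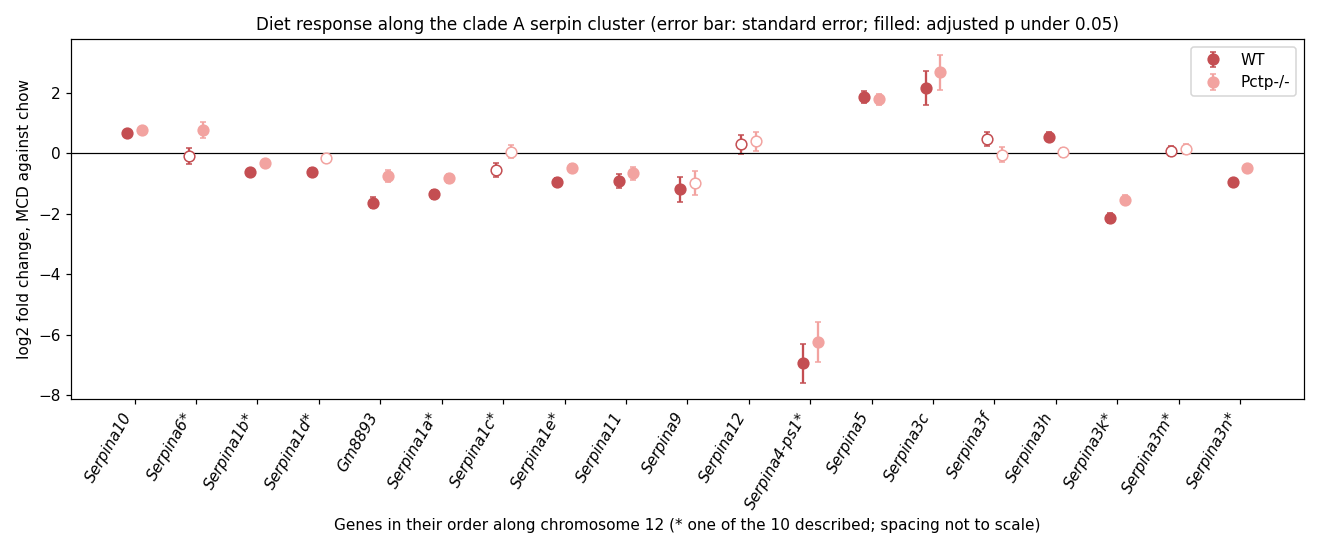
Log2 fold change of MCD against chow with its standard error for the tested clade A genes and Gm8893 in their order along chromosome 12, with equal spacing and filled symbols for an adjusted p under 0.05. Serpina4-ps1 is at -6.95 and -6.24 while its neighbour Serpina5 is at 1.86 and 1.79, and Serpina3k at -2.15 and -1.53 stands next to Serpina3m at 0.09 and 0.14.

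Transcription factors and receptors known to act on liver serpin genes were mostly lower on MCD: of 18 tested, 12 fell and none rose in WT, and 13 fell and 1 rose in Pctp-/-, with medians of -1.003 and -0.71. Over all genes 22.5% fell and 34.5% rose in WT, 24.4% fell and 26.0% rose in Pctp-/-, and the medians were 0.11 and 0.04. Hnf4a fell by 1.10 and 0.87, Il6ra, the receptor for interleukin 6, by 1.32 and 0.80, and Cebpb by 2.40 and 3.25, the largest fall of the list. Ghr, the growth hormone receptor, fell by 0.90 in WT and 0.59 in Pctp-/-, and on MCD it was higher in Pctp-/- (0.42, SE 0.08, adjusted p = 0.0334). Stat5b fell by 0.34 (adjusted p = 0.0482) and 0.61. Stat3 did not pass in either genotype (-0.03 and -0.12). Nr3c1, the glucocorticoid receptor, was called higher on MCD in Pctp-/- (0.34, adjusted p = 0.0425) and not in WT (0.07).

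Bcl6, a repressor, was the 1 gene of this list with a called difference between the diet responses (-2.16, SE 0.33, adjusted p = 0.0399). It averaged 4.55 FPKM in WT and 19.4 in Pctp-/- on chow (1.87, adjusted p = 0.00536), and 4.64 and 3.56 on MCD.

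For the lists that follow, 57.0% of all genes were called in WT (34.5% higher, 22.5% lower) and 50.3% in Pctp-/- (26.0% higher, 24.4% lower). Target proteases and partners were mostly too low to test: 3 of 12 were tested, 8 were under the minimum and 1 was not in the table. Plg, plasminogen, fell by 0.89 in WT and 0.48 in Pctp-/-, Proc, protein C, by 0.73 and 0.57, and F11, coagulation factor XI, fell by 0.61 in WT and rose by 0.43 in Pctp-/-. Serpins of other clades were split, with 4 higher and 5 lower of 13 tested in WT and 5 and 5 in Pctp-/-, among them Serpine2, an inhibitor of thrombin and plasminogen activators, which fell by 2.25 and 1.84, Serpinb9 (1.74 in WT) and Serpinb8 (1.73 in Pctp-/-). Of 14 acute-phase genes 7 rose and 3 fell in WT, and 7 rose and 1 fell in Pctp-/-, led by Lcn2 (5.66) in WT and Apcs (5.70) in Pctp-/-, with Fga falling by 0.67 and 0.47. Of 14 abundant secreted proteins of hepatocytes, 3 rose and 3 fell in WT and 4 rose and 3 fell in Pctp-/-, with Ahsg up by 0.75 and Ambp down by 0.55 in WT and Trf up by 1.80 and Apoa1 down by 0.55 in Pctp-/-.

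Genes that handle alpha-1-antitrypsin in the endoplasmic reticulum numbered 5 higher and 3 lower of 16 in each genotype, no more than the share of all genes called (57.0% in WT and 50.3% in Pctp-/-). Mcfd2, a partner of the export receptor, rose by 1.29 in WT and 0.92 in Pctp-/-, and Syvn1, a ubiquitin ligase of the degradation pathway, fell by 1.48 and 1.44. In Pctp-/- the diets overlapped for Syvn1, at 17.9, 112 and 107 FPKM on chow and 21.1, 19.9 and 23.9 on MCD. Beside Serpina6, the list for glucocorticoid handling had 1 higher and 4 lower of 10 in WT and 3 higher and 4 lower in Pctp-/-. Akr1d1 rose by 1.94 in WT, and Srd5a1 fell by 2.35 and 2.27. Fkbp5 rose by 2.29 in Pctp-/-, from a mean of 6.48 FPKM on chow, where WT averaged 20.5. Tsc22d3, Per1 and Tat of the same list had lower means on MCD in Pctp-/-. These were 87.5, 13.9 and 1046 FPKM on chow and 27.6, 4.34 and 366 on MCD. Hsd11b1, which regenerates active glucocorticoid, was higher in Pctp-/- than in WT on MCD (0.64, adjusted p = 0.0349).

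The non-serpin genes with the most similar pattern over the 12 libraries were found by Pearson's r of log2(FPKM + 1), a description that the shared diet difference dominates. For Serpina3k they were Mccc2 (r = 0.996) and Slc27a5, for Serpina4-ps1 Nudt7 (0.996) and Keg1, for Serpina3n Galm (0.992) and Mup9, for Serpina1a Rdh7 (0.983) and Cyp2f2, and for Serpina1b Plg (0.978) and Ugt2b1. The highest r was lower for Serpina1e (Mtss1, 0.964), Serpina1c (Apoh, 0.938), Serpina6 (Rnf186, 0.931) and Serpina1d (Chchd2-ps, 0.927), and lowest for Serpina3m (Gm2000, 0.839).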

How the data were processed

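Liver RNA was measured by sequencing in 12 libraries, and the authors deposited 1 table of FPKM per Ensembl gene. The reads were mapped to mm10 by the submitters' processing notes. The aligner, the counter and the annotation behind the table are not given in the sources used here. A deposited sheet of library statistics (read counts and percent of bases and of mapped reads) gave the depth. Symbols, coordinates and transcripts came from GENCODE M21 (34490 of 35275 IDs matched) and promoters from RefSeq.

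The study's Wald test needs counts, so log2(FPKM + 1) was fitted with limma 3.58.1 in R 4.3.3 (trended empirical Bayes, 1 mean for each group over 12 libraries, mean FPKM of at least 0.5, two-sided, Benjamini-Hochberg over 12466 genes, threshold 0.05, no minimum fold change). Sequences were compared with Biopython 1.88. Read pairs behind a value were taken as FPKM times exonic length times uniquely mapped pairs, in the units of FPKM. In data simulated for MCD against chow in WT, with 200 of 12466 genes changed, 17.5% were recovered at a log2 change of 0.5, 81.5% at 1 and 99.0% at 2. False calls made up 10.3%, 2.98% and 5.26% of the calls. In the data themselves 57.0% of genes were called in this comparison. The adjusted p depends on the share of genes changed, so the simulation does not give the power of the test there.

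The 10 genes and the lists were chosen with earlier results of these data known. The other clade A serpins were named, and of other lists the largest rise and fall among called genes and 7 regulators; a further regulator is not reported here. Replicate libraries correlated at 0.979 to 0.992 and no pair held identical values. Alternatives covered the pseudocount, the filter, the scaling, the fit, a replicate block, summed copies and single libraries left out.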

Additional observations from a re-analysis of the deposited data

How the results depend on the processing

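The counts of the 10 genes called in WT on MCD against chow were 7 to 8 over the settings without a minimum change and 7 to 8 with each library left out; with a minimum log2 change of 1 in either direction the count was 3, with 3 lower. In Pctp-/- 5 to 7 were called, 5 to 6 lower and 0 to 1 higher, with each library left out. With the minimum of 1 in Pctp-/-, 2 were called, 2 lower and 0 higher, and with no filter on low values 0 were higher. Between genotypes on MCD quantile normalization called 2, both higher, where the count was 0 otherwise. In the single genes 1112 of 1140 values kept their side of the threshold, 27 uncalled values changed sign, 19 lost and 8 gained a call, and 1 called value turned: Serpina1b in Pctp-/- was 0.079 (adjusted p = 0.457) with quantile normalization. With copies summed the values assigned to Serpina3m were -1.61 in WT and -1.15 in Pctp-/-, and that to Serpina1c in Pctp-/- -0.39; with Gm8893 in the sum it was -0.45. Summing gives no count of calls. The labels name the replicates as biological and give neither a pairing of mice nor a batch. Deviations of same-numbered libraries correlated at -0.10 to 0.22, with 8 of 18 pairs over 0.1. With the replicate block 8 genes were called in WT, 7 in Pctp-/-, and 0 between genotypes on either diet; Serpina1c in WT then passed (-0.55, adjusted p = 0.00754). Groups of 3 mice limit the precision, and the FPKM carry no counts from which counting error could be read.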

Other observations

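The transcript B430119L08Rik, which shares 429 exonic bases with Serpina1c on the opposite strand, was listed at 7.51 to 8.53 FPKM in WT on chow, 1.99 to 3.98 in Pctp-/- on chow, 1.63 to 3.66 in WT on MCD and 1.10 to 3.09 in Pctp-/- on MCD, and was picked out after its values were seen. It was lower on MCD in WT (log2 fold change -1.39, SE 0.27, adjusted p = 0.000899), and between genotypes on chow the groups were apart without passing the adjusted test (-1.09, SE 0.27, adjusted p = 0.222). The strand of the counting is not given in the sources used here, so reads of Serpina1c and of this transcript cannot be told apart in the shared bases.

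The listed levels of pseudogenes in the cluster ranged widely. Apart from Gm8893, whose level rests on reads that may fit the Serpina1 copies, the small annotated pseudogenes Gm17042, Gm17043, Gm6918, Gm17198, Gm5656 and Gm17142 were listed at 0 in all 12 libraries, and Gm8895 was at most 0.150 FPKM. Serpina4-ps1, also annotated as an unprocessed pseudogene, was at rank 4 of the 10 genes in WT on chow and at rank 10 on MCD.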
